A study of Solanum lycopersicum with 4 samples.

Results

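The genes described here are 10 tomato genes of jasmonate synthesis and jasmonate signalling, out of 34675 genes in the deposited table. They were listed by gene ID for their place in the pathway, with earlier results of these data known: the lipoxygenase genes LOXD and LOXF, the allene oxide synthase genes AOS1 and AOS2, the allene oxide cyclase gene AOC, the OPDA reductase gene OPR3, the repressor genes JAZ1, JAZ2 and JAZ3, and the transcription factor gene MYC2. RNA was sequenced from fruit of Solanum lycopersicum, cultivar Ailsa Craig, without treatment. The transgenic group carried CsMYBF1, a citrus MYB factor gene, and held 1 library of line D7 (replicate 1) and 1 library of line C2 (replicate 2). The wild-type group held 2 libraries, replicates 1 and 2. The promoter that drove CsMYBF1, the stage of the fruit, and whether fruits or plants were pooled are not stated in the sources at hand. Each line was measured in a single library, so a difference between lines has no replicate. The labels do not say whether the wild-type libraries are of different plants. The p-values therefore reflect the spread between these libraries alone. In wild type that spread may be technical, and in the CsMYBF1 group it includes any difference between the lines.

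Jasmonates are lipid hormones made from linolenic acid. A lipoxygenase oxygenates the fatty acid in the plastid, allene oxide synthase and allene oxide cyclase turn the product into OPDA, and OPR3 reduces OPDA in the peroxisome. The amino acid conjugate of jasmonate binds the receptor COI1, which leads to the breakdown of JAZ proteins, and MYC2 is thereby released to activate its targets. Those targets include JAZ genes themselves, so JAZ transcripts are widely used as a readout of recent jasmonate signalling. In tomato the pathway is best known for the response to wounding and insect feeding.

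The table pairs none of these IDs with a name, and the names used here are those of the list that chose the genes. In the RefSeq gene table of assembly SLM_r2.1, 9 of the 10 names occur as a symbol or synonym on the chromosome that the gene ID gives, and JAZ1 was not matched. LOXD (Solyc03g122340.2) and JAZ3 (Solyc03g122190.2) both carry IDs of chromosome 3, and the RefSeq genes loxD and SLJAZ3 are separated by 8 protein-coding genes. AOS1 is Solyc04g079730.1, AOS2 is Solyc11g069800.1, AOC is Solyc02g085730.2 and OPR3 is Solyc07g007870.2. JAZ1 is Solyc07g042170.2, JAZ2 is Solyc12g009220.1, MYC2 is Solyc08g076930.1 and LOXF is Solyc01g006560.2.

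Levels are given as RPKM, which counts reads after division by the gene's length in kilobases and by the library's reads in units of 1000000. The depth recovered from the steps of the RPKM values was 15227619 and 12916160 reads for lines D7 and C2, against 21403774 and 13101910 reads for wild-type replicates 1 and 2. The table holds tomato gene IDs, so the level of CsMYBF1 was not analysed here. Of 5 IDs listed from general knowledge as markers of ripening fruit, all were above 100 RPKM in every library, with summed levels of 6123 and 6434 RPKM in lines D7 and C2 and 5279 and 5887 RPKM in wild type. Summed levels of 3 Rubisco small subunit IDs, listed as markers of green tissue, were 39.5 and 7.13 RPKM in lines D7 and C2, against 71.5 and 70.7 RPKM in wild type. A single ID made up nearly all of this sum, with 38.3 and 7.04 RPKM in lines D7 and C2, against 70.8 and 68.4 RPKM in wild type. Its difference between the groups did not pass (limma, adjusted p = 0.093). The others stayed below 2 RPKM in every library and were not tested. In bulk fruit RNA, fewer cells that express a gene and less of its RNA per cell cannot be told apart.

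No jasmonate gene of the list passed the test between CsMYBF1 fruit and wild-type fruit. A total of 9 genes had a mean of at least 1 RPKM over the 4 libraries and were tested, and 0 were called higher and 0 lower (limma on log2(RPKM + 1), adjusted p below 0.05 over all 16876 genes tested). The same fit called 18.8% of all genes higher and 2.09% lower. MYC2 was the single gene of the list with an unadjusted p below 0.05, a level reached by 34.1% of all genes as higher and 7.35% as lower. The limma model of recovered reads (voom) also called 0 of the 9. The median log2 fold change of the 9 genes was 0.21, and that of all genes tested was 0.49. The list's changes ran from -1.39 for JAZ1 to 1.07 for LOXD, and 4 of the 9 lay above the median of all genes. For 4 of the 9 (LOXD, OPR3, JAZ2 and JAZ3) both CsMYBF1 lines lay between the 2 wild-type libraries, for OPR3 by margins within counting error.

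**Figure D1:**
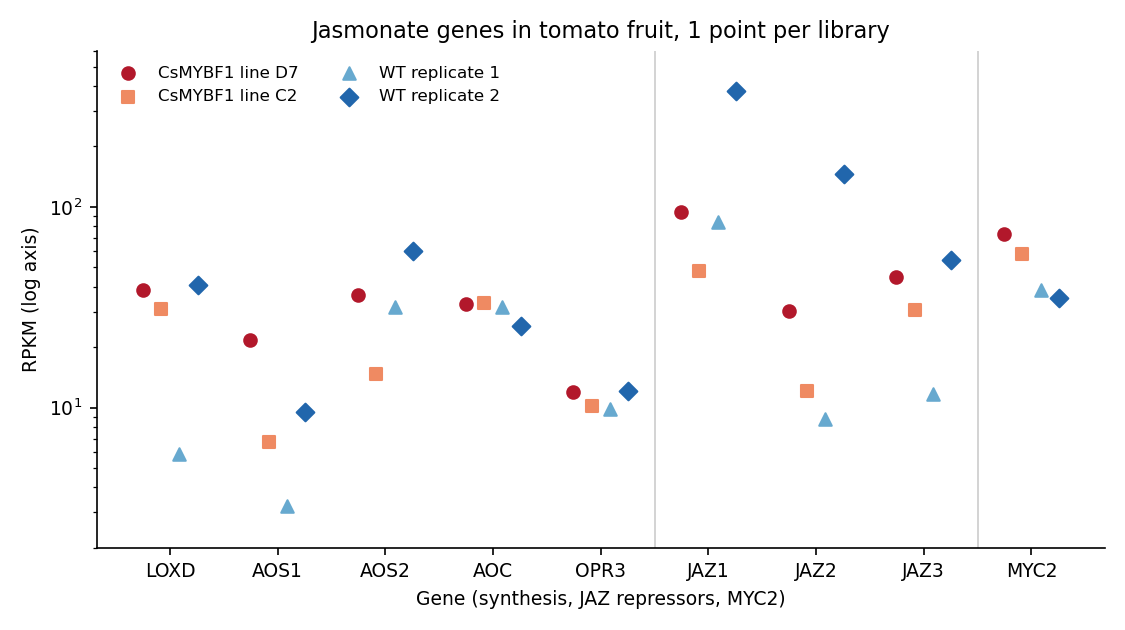
RPKM on a log axis of the 9 jasmonate genes with reads, 1 point per library, with CsMYBF1 lines D7 and C2 left of wild-type replicates 1 and 2. JAZ1 and JAZ2 stand highest in wild-type replicate 2, at 377 and 146 RPKM. The MYC2 points of both CsMYBF1 lines lie above both wild-type points, as for 50.7% of all genes tested.

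Among the synthesis genes, LOXD encodes the lipoxygenase that tomato induces on wounding. It measured 38.5 (line D7) and 30.9 RPKM (line C2) in CsMYBF1 fruit, against 5.86 (replicate 1) and 40.8 RPKM (replicate 2) in wild-type fruit. Both lines lay between the wild-type libraries, and only wild-type replicate 1 was low. The CsMYBF1 libraries averaged 34.7 ± 5.42 RPKM and wild type 23.3 ± 24.7 RPKM (SD, n = 2 each). On the log2 scale the change was 1.07 (standard error 0.81; limma, adjusted p = 0.36). Leaving out wild-type replicate 1 gave -0.23, and leaving out wild-type replicate 2 gave 2.37. LOXD has the longest recovered gene length of the 9, at 3088 bases. In the whole table each doubling of gene length went with a log2 fold change higher by 0.39, and after removal of this length trend the value was -0.37 (standard error 0.96).

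LOXF, another lipoxygenase gene, was listed at 0 in all 4 libraries. A count of 0 allows up to 3 reads, which for a gene of 1 kilobase is 0.197 and 0.232 RPKM in lines D7 and C2, against 0.14 and 0.229 RPKM in wild-type replicates 1 and 2. The length of LOXF could not be recovered without reads. In RefSeq 1 protein-coding gene lies between loxF and the related gene loxC. The sources at hand do not state how reads shared by related genes were counted.

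AOS1 and AOS2 encode allene oxide synthases, the enzymes that commit the lipoxygenase product to jasmonate synthesis. AOS1 measured 21.6 (line D7) and 6.75 RPKM (line C2) in CsMYBF1 fruit, against 3.23 (replicate 1) and 9.51 RPKM (replicate 2) in wild-type fruit. The groups overlapped, since line C2 lay below wild-type replicate 2. Its log2 fold change, 0.99 (standard error 0.66), did not pass (limma, adjusted p = 0.3). AOS2 measured 36.2 (line D7) and 14.6 RPKM (line C2) in CsMYBF1 fruit, against 31.7 (replicate 1) and 60.4 RPKM (replicate 2) in wild-type fruit. Line D7 lay between the wild-type libraries and line C2 below both. This gave a log2 fold change of -0.89, standard error 0.52 (limma, adjusted p = 0.24).

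Within each library AOS2 exceeded AOS1, and AOS1 made up a larger part of the pair in both lines. AOS1 held 37.3% of the summed AOS1 and AOS2 RPKM in line D7 and 31.6% in line C2, against 9.24% and 13.6% in wild-type replicates 1 and 2. The ratio of AOS1 to AOS2 was 0.596 (exact 95% counting interval 0.534 to 0.665) in line D7 and 0.461 (0.374 to 0.566) in line C2. It was 0.102 (0.083 to 0.124) in wild-type replicate 1 and 0.157 (0.135 to 0.183) in wild-type replicate 2. The groups did not overlap, and the geometric mean of the ratio was 4.14-fold higher in the lines. How often a ratio of 2 genes separates these groups was not counted. Among single genes tested, 50.7% did not overlap with CsMYBF1 higher and 17.4% with CsMYBF1 lower. For the AOS1 to AOS2 ratio the exact two-sided permutation test gave p = 0.333, the smallest p that 2 libraries against 2 can give. A factor common to all genes of a library leaves this ratio as it is, and their recovered lengths, which are lower limits, are 1605 and 1533 bases. With the length trend removed the log2 difference was 1.94, against 2.05 as deposited. The intervals hold counting error alone, and the protocol names no molecular identifiers that would tell copies of 1 molecule apart.

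AOC and OPR3 act after allene oxide synthase. AOC, which sets the stereochemistry of OPDA, measured 32.7 (line D7) and 33.2 RPKM (line C2) in CsMYBF1 fruit, against 31.8 (replicate 1) and 25.4 RPKM (replicate 2) in wild-type fruit. The groups did not overlap, but line D7 and wild-type replicate 1 differed by 1.03-fold, with a counting interval of 0.926 to 1.14. Over all genes tested, 50.7% did not overlap with CsMYBF1 higher and 17.4% with CsMYBF1 lower. The log2 fold change of AOC was 0.21 with a standard error of 0.29 (limma, adjusted p = 0.62), and it turned to -0.42 with median-of-ratios scaling. OPR3 measured 12.0 (line D7) and 10.2 RPKM (line C2) in CsMYBF1 fruit, against 9.86 (replicate 1) and 12.1 RPKM (replicate 2) in wild-type fruit. Its lines lay between the wild-type libraries, each within counting error of the nearer one. The log2 fold change of OPR3 was 0.01 with a standard error of 0.31 (limma, adjusted p = 0.98). Relative to the median of all genes AOC stood at -0.29 and OPR3 at -0.48.

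The JAZ genes encode the repressors that bind MYC2. JAZ1 measured 94.5 (line D7) and 48.0 RPKM (line C2) in CsMYBF1 fruit, against 83.6 (replicate 1) and 377 RPKM (replicate 2) in wild-type fruit. Line D7 lay above wild-type replicate 1 and line C2 below it, while wild-type replicate 2 stood above the other libraries. The CsMYBF1 libraries averaged 71.2 ± 32.9 RPKM and wild type 230.2 ± 207 RPKM (SD, n = 2 each). On the log2 scale the change was -1.39 (standard error 0.73; limma, adjusted p = 0.2). Without wild-type replicate 1 it was -2.47 (limma, adjusted p = 0.04), a fit in which a single wild-type library stands for the group and is assumed to vary like the CsMYBF1 libraries. Without wild-type replicate 2 it was -0.31, and over all alternative settings the adjusted p ranged from 0.034 to 0.67.

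JAZ2 measured 30.2 (line D7) and 12.1 RPKM (line C2) in CsMYBF1 fruit, against 8.74 (replicate 1) and 146 RPKM (replicate 2) in wild-type fruit. Both lines lay between the wild-type libraries, and the direction of the group difference depended on which of these was kept. Its log2 fold change, -0.90 (standard error 1.22), did not pass (limma, adjusted p = 0.61). It was -2.86 without wild-type replicate 1 (limma, adjusted p = 0.041) and 1.06 without wild-type replicate 2 (limma, adjusted p = 0.27), with a range of 0.041 to 0.92 over all alternative settings. In both of these fits wild type is a single library that is assumed to vary like the 2 CsMYBF1 libraries.

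JAZ3 measured 44.6 (line D7) and 30.6 RPKM (line C2) in CsMYBF1 fruit, against 11.7 (replicate 1) and 54.1 RPKM (replicate 2) in wild-type fruit. Its lines also lay between the wild-type libraries, and wild-type replicate 1 was the low one. This gave a log2 fold change of 0.52, standard error 0.69 (limma, adjusted p = 0.6), close to the median of all genes. It turned to -0.54 without wild-type replicate 1 and to -0.10 with median-of-ratios scaling.

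JAZ1 had the highest level of the 3 repressor genes in all 4 libraries, but its share of their summed RPKM was smaller in the lines. JAZ1 held 55.8% of that sum in line D7 and 52.9% in line C2, against 80.4% and 65.3% in wild-type replicates 1 and 2. JAZ3 held 26.3% in line D7 and 33.8% in line C2, against 11.2% and 9.39% in wild-type replicates 1 and 2. JAZ2 held 17.8% in line D7 and 13.4% in line C2, against 8.4% and 25.3% in wild-type replicates 1 and 2, so that its groups overlapped. Together the 3 genes reached 169 (line D7) and 90.7 RPKM (line C2) in CsMYBF1 fruit, against 104 (replicate 1) and 576 RPKM (replicate 2) in wild-type fruit.

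The ratio of JAZ3 to JAZ1, examined after these shares were seen, was nearly equal in the wild-type libraries although both genes differed there by more than 4-fold. It was 0.472 (exact 95% counting interval 0.435 to 0.511) in line D7 and 0.638 (0.57 to 0.715) in line C2. In wild-type replicates 1 and 2 it was 0.14 (0.125 to 0.157) and 0.144 (0.134 to 0.154). The groups did not overlap, with a geometric mean 3.87-fold higher in the lines, and the exact two-sided permutation test gave p = 0.333, again the smallest possible. How often gene ratios separate these groups was again not counted. The ratio of JAZ2 to JAZ1 overlapped between the groups. It was 0.319 and 0.253 in lines D7 and C2, against 0.105 and 0.387 in wild-type replicates 1 and 2. The recovered lengths of JAZ3 and JAZ1, lower limits again, are 1449 and 1051 bases, and with the length trend removed the log2 difference was 1.52, against 1.95 as deposited.

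**Figure D2:**
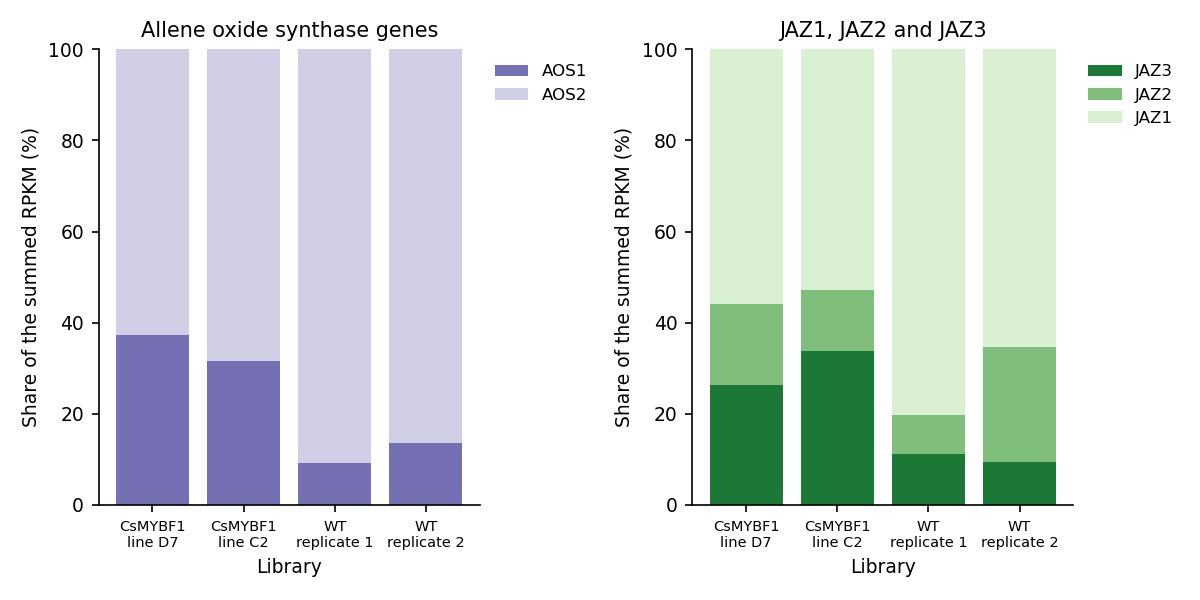
Share in percent of the summed RPKM held by AOS1 and AOS2 (left) and by JAZ1, JAZ2 and JAZ3 (right), 1 bar per library, with CsMYBF1 lines left of wild type. AOS1 and JAZ3 take a larger part of the bar in both CsMYBF1 lines, 31.6% or more and 26.3% or more, than in both wild-type libraries, 13.6% or less and 11.2% or less. How often a share or ratio of genes separates these groups was not counted. Among single genes tested, 50.7% did not overlap with CsMYBF1 higher and 17.4% with CsMYBF1 lower.

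MYC2, the bHLH factor that activates jasmonate targets, had the smallest adjusted p of the list. It measured 73.1 (line D7) and 58.5 RPKM (line C2) in CsMYBF1 fruit, against 38.3 (replicate 1) and 35.2 RPKM (replicate 2) in wild-type fruit. Both lines lay above both wild-type libraries, which held for 50.7% of all genes tested. The CsMYBF1 libraries averaged 65.8 ± 10.3 RPKM and wild type 36.8 ± 2.19 RPKM (SD, n = 2 each), a 1.79-fold difference. Its log2 fold change of 0.81 (standard error 0.28) missed the threshold (limma, adjusted p = 0.085). Set against the median of all genes the change was 0.32, and 6453 of the 16876 genes had a log2 fold change at least as high. MYC2 has a recovered length of 2070 bases, and with the length trend removed its value turned to -0.20 with a standard error of 0.23 (limma, adjusted p = 0.63). Over all alternative settings the adjusted p ranged from 0.041 to 0.63, and MYC2 passed only when libraries were scaled without their 10 most abundant genes.

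**Figure D3:**
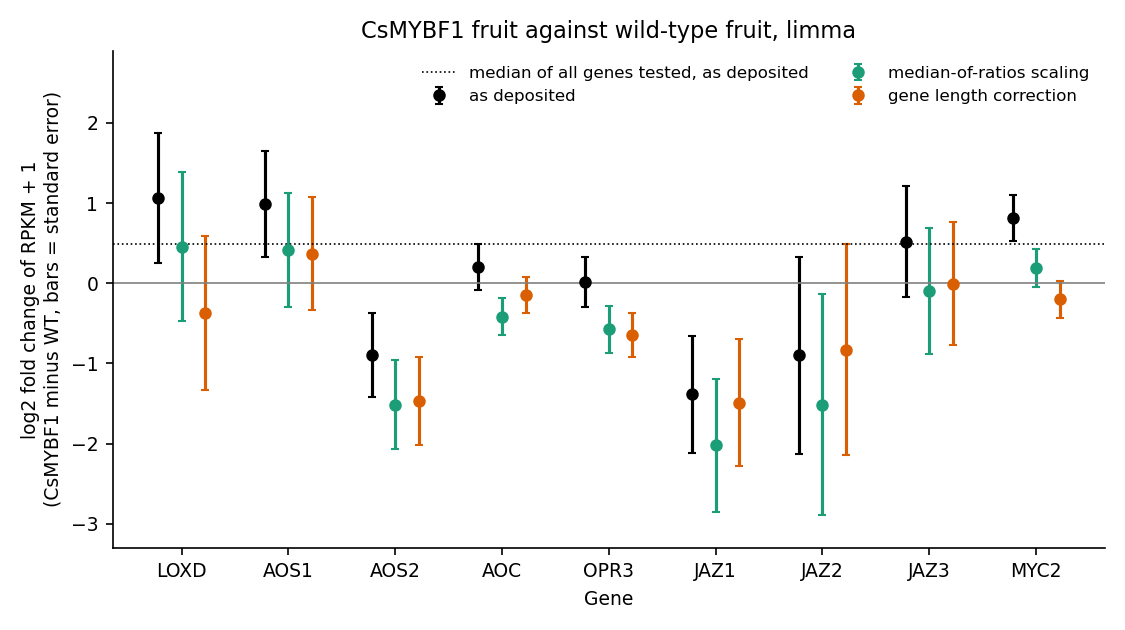
Log2 fold change of RPKM + 1, CsMYBF1 minus wild type, of each of the 9 genes as deposited, with median-of-ratios scaling and with the gene length trend removed. Bars are standard errors (limma, 2 libraries per group) and the dotted line is the median of all genes, 0.49. AOS2, JAZ1 and JAZ2 lie below 0 in all 3 versions, and MYC2 moves to -0.20 with the length trend removed.

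Relative to the repressors, MYC2 was lowest in wild-type replicate 2. The level of MYC2 was 0.432 times the summed level of the 3 JAZ genes in line D7 and 0.645 times in line C2, against 0.369 and 0.0611 times in wild-type replicates 1 and 2. MYC2 ranked above every JAZ gene in line C2, below JAZ1 alone in line D7 and in wild-type replicate 1, and below all 3 in wild-type replicate 2. OPR3 and AOS1 were among the lowest genes with reads in every library but wild-type replicate 1, where AOS1 and LOXD were the lowest.

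The wild-type libraries differed from each other in LOXD and in all 3 JAZ genes, with wild-type replicate 2 above wild-type replicate 1. The difference was 16.7-fold for JAZ2 (exact 95% counting interval 14.01 to 19.9), 6.96-fold for LOXD (6.23 to 7.8), 4.63-fold for JAZ3 (4.1 to 5.23) and 4.5-fold for JAZ1 (4.27 to 4.75). These 4 of 9 genes passed 4-fold, a size reached in this direction by 4.34% of all genes tested. With quantile normalization JAZ1 was at 3.66-fold and 3 of the 9 passed. A ratio as high as that of JAZ2 was found in 245 of the 16876 genes. AOS1 was 2.94-fold and AOS2 1.9-fold higher in wild-type replicate 2. OPR3 was 1.23-fold higher there, and AOC and MYC2 were slightly lower, at 0.798 and 0.919 times wild-type replicate 1. The intervals compare 2 libraries and leave out the variation between fruits. For 6 of the 9 genes wild-type replicate 2 was the highest of the 4 libraries, which held for 16.5% of all genes. For 5 of the 9, wild-type replicate 1 was the lowest, which held for 19.1% of all genes. In 4 of the 9, both lines lay between the wild-type libraries, which held for 9.54% of all genes. These counts share genes, since LOXD, OPR3, JAZ2 and JAZ3 are in each of them. The order of OPR3 is within counting error. Its line D7 was 0.988 times wild-type replicate 2 (counting interval 0.835 to 1.17), and its line C2 was 1.03 times wild-type replicate 1 (0.868 to 1.23). LOXD in line D7 was 0.945 times wild-type replicate 2 (0.884 to 1.01).

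Some ripening markers also differed between the wild-type libraries. Polygalacturonase, a cell wall enzyme of ripening, measured 223 (line D7) and 531 RPKM (line C2) in CsMYBF1 fruit, against 116 (replicate 1) and 713 RPKM (replicate 2) in wild-type fruit. The ethylene synthesis gene ACS2 measured 300 (line D7) and 113 RPKM (line C2) in CsMYBF1 fruit, against 108 (replicate 1) and 451 RPKM (replicate 2) in wild-type fruit. The markers E8, PSY1 and ACO1 differed by at most 1.23-fold between the wild-type libraries. The part of these differences in the jasmonate values was not tested.

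Between the lines no gene of the list reached a 4-fold difference. Few of all genes tested did so: 1.27% were at least 4-fold lower in line D7 than in line C2. In the other direction 4.35% reached the 3.2-fold of AOS1, and the share at least 4-fold higher in line D7 was not counted. Line D7 was higher than line C2 for 8 of the 9 genes, beside 55% of all genes tested. This difference reached 2-fold for AOS1 (3.2-fold, counting interval 2.65 to 3.88), JAZ2 (2.49-fold, 2.01 to 3.09) and AOS2 (2.47-fold, 2.16 to 2.84), which are 3 of 9 genes beside 9.57% of all genes tested. JAZ1 was 1.97-fold and JAZ3 1.46-fold higher in line D7. LOXD and MYC2 were each 1.25-fold higher there, and AOC was 0.984 times the level of line C2.

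**Figure D4:**
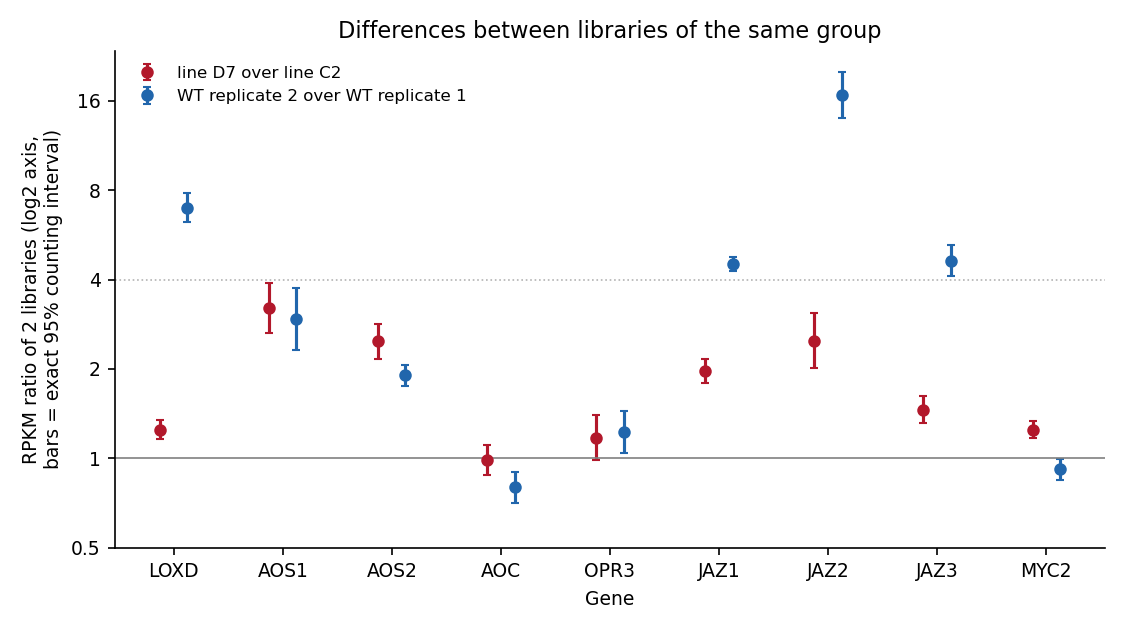
RPKM ratio of line D7 over line C2 (red) and of wild-type replicate 2 over wild-type replicate 1 (blue) for the 9 genes on a log2 axis, with exact 95% counting intervals. LOXD, JAZ1, JAZ2 and JAZ3 lie above the dotted 4-fold line between the wild-type libraries, beside 4.34% of all genes tested. No gene of the list does between the lines, where 4.35% of all genes reached the 3.2-fold of AOS1 and the share at 4-fold was not counted.

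Each line set against each wild-type library shows how far the picture rests on the choice of wild type, and these comparisons share libraries. Line D7 was higher than wild-type replicate 1 for 9 of 9 genes, beside 67.5% of all genes tested, and higher than wild-type replicate 2 for 3 of 9, beside 70.3%. Line C2 was higher than wild-type replicate 1 for 7 of 9 genes, beside 63.2% of all genes tested, and higher than wild-type replicate 2 for 2 of 9 (AOC and MYC2), beside 66%. LOXD was 6.58-fold and 5.27-fold higher in lines D7 and C2 than in wild-type replicate 1, but 0.945 and 0.757 times wild-type replicate 2. JAZ2 in line C2 was 1.39-fold above wild-type replicate 1 and 0.0834 times wild-type replicate 2.

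A wider list of 21 further jasmonate gene IDs was written from general knowledge of the tomato pathway. The table and the RefSeq gene table do not pair these IDs with names, so its groupings could not be checked. Of the 21, 14 were tested, and 2 were higher and 1 lower (limma, adjusted p below 0.05), beside 18.8% and 2.09% of all genes. Their median log2 fold change was -0.06, and that of all genes was 0.49. Without line D7, line C2 or wild-type replicate 2, 0 of the list were called, and without wild-type replicate 1 there were 3 higher and 3 lower. Both genes called higher were among 6 IDs listed as partners and targets of MYC2, whose median was 1.00. The group holds bHLH antagonists, a Mediator subunit and NAC targets. The IDs listed as NAC targets, at -0.12 and 0.19, lay below the median of all genes. Solyc12g070100.1 measured 30.6 (line D7) and 29.0 RPKM (line C2) in CsMYBF1 fruit, against 7.42 (replicate 1) and 8.62 RPKM (replicate 2) in wild-type fruit (log2 fold change of 1.78 ± 0.29, standard error; limma, adjusted p = 0.031). Solyc01g096050.2 measured 58.5 (line D7) and 68.9 RPKM (line C2) in CsMYBF1 fruit, against 28.3 (replicate 1) and 16.3 RPKM (replicate 2) in wild-type fruit (log2 fold change of 1.52 ± 0.35, standard error; limma, adjusted p = 0.038). The groups did not overlap for either, beside 50.7% of all genes tested with CsMYBF1 higher. Their recovered lengths are 2418 and 2277 bases. With the length trend removed their log2 fold changes were 0.57 (limma, adjusted p = 0.28) and 0.38 (limma, adjusted p = 0.45), the highest adjusted p of either over all alternative settings, which began at 0.02 and 0.022.

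Of 9 IDs listed as other JAZ repressors, 7 were tested, and 0 were higher and 1 lower, beside 18.8% and 2.09% of all genes. The gene called lower, Solyc08g036620.2, measured 1.62 (line D7) and 1.15 RPKM (line C2) in CsMYBF1 fruit, against 9.23 (replicate 1) and 37.7 RPKM (replicate 2) in wild-type fruit. Its recovered length is short, at 405 bases, a lower limit, and no counting interval was computed for its low levels in the lines. Both lines lay below both wild-type libraries, although these differed by 4.08-fold. The same order held for 17.4% of all genes tested. On the log2 scale the change was -3.07 (standard error 0.65; limma, adjusted p = 0.033). It stayed between -4.03 and -1.95 over 17 alternative settings and passed in 8 of them, with adjusted p from 0.021 to 0.19. The median of the 7 was -1.03, and in 3 of them wild-type replicate 2 was at least 4-fold above wild-type replicate 1, beside 4.34% of all genes. The receptor and conjugation group had 1 gene tested, which was not called, at a log2 fold change of -0.30. None of 4 IDs listed as wound-response outputs reached the mean of 1 RPKM needed for the test. The highest of their values was 0.675 RPKM in CsMYBF1 fruit and 2.17 RPKM in wild-type fruit.

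**Figure D5:**
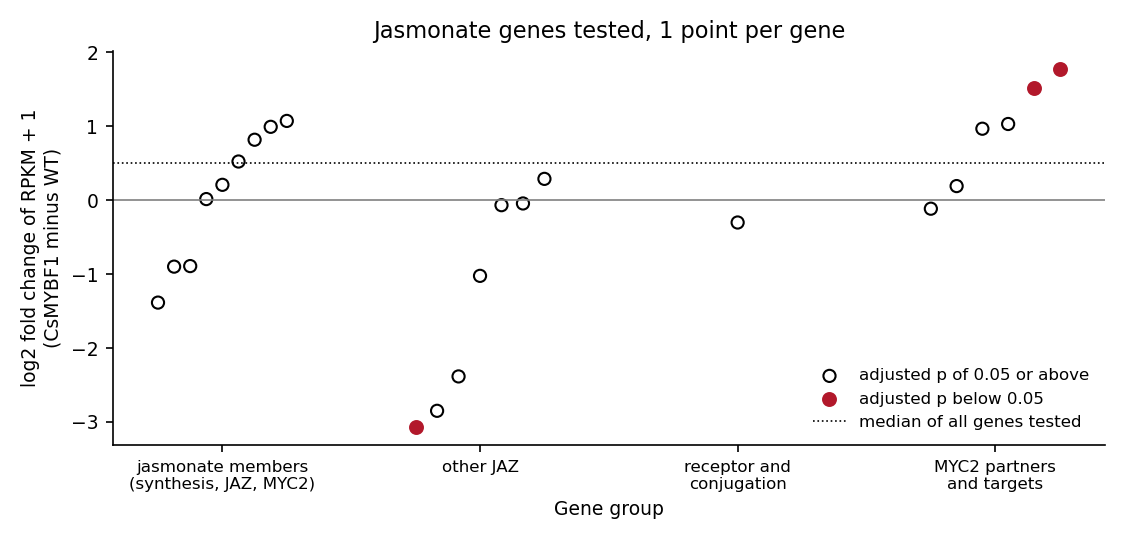
Log2 fold change of RPKM + 1, CsMYBF1 minus wild type, 1 point per gene tested, for the 9 jasmonate genes and for groups of the wider list. Filled points passed the limma test, the dotted line is the median of all genes at 0.49, and 1 point of the other JAZ group and 2 of the MYC2 partners and targets are filled.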

How the data were processed

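Poly(A)-enriched fruit RNA of 4 libraries was sequenced after random-primed cDNA synthesis, per the labels' protocols. The authors deposited 1 table of RPKM values, which they had computed. HTSeq is named, without a version, in the submitters' processing notes. The aligner, build, annotation, strand setting and treatment of multiply mapped reads are not stated in the sources at hand. Library totals and reads per gene were recovered from the steps of the RPKM values (lengths of 60 to 20000 bases, tolerance 0.001 reads), which solved 99.99% of the 24422 genes above 0. Recovered lengths are lower limits. The comparison used limma (version 3.58.1, R 4.3.3, eBayes with trend). It ran on log2(RPKM + 1) of genes whose mean reached 1 RPKM, with Benjamini-Hochberg adjustment over all genes, and was tested on simulated data. The simulated data held large changes, little spread between libraries and no length trend, so they cannot show its error rate here. Fold changes on this scale understate changes of low genes. Counting intervals are exact 95% intervals of read ratios (scipy 1.17.1). The length trend was removed by loess with a span of 0.3. The members and lists were chosen with earlier results of these data known. All 10 members are named, and IDs of the wider list are named where called, chosen after their values were seen. No test of gene sets was run. Other settings tried were pseudocounts, filters, scalings, eBayes options, voom, replicate blocks and leaving out each library.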

Additional observations from a re-analysis of the deposited data

How the results depend on the processing

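The crossed block, and the settings for the ratios and for the wild-type pair, were chosen after seeing the data. Of the 9 jasmonate genes, 1 was called higher when libraries were scaled without their 10 most abundant genes, and fits without 1 library gave 0 higher and 0 to 2 lower. Over all genes 3179 were called higher and 352 lower. No filter gave 11 and 0, median-of-ratios scaling 498 and 926, quantile normalization 17 and 0, and the length correction 18 and 0. Scaling without the 10 most abundant genes gave 4670 higher and 212 lower. Leaving out a library gave 6 to 3365 higher and 0 to 451 lower. The wider list's 2 higher and 1 lower were 0 and 0 under the length correction, quantile normalization, median-of-ratios scaling, the replicate block or no filter, and voom called 0 lower. Leaving out a library gave 0 to 3 higher and 0 to 3 lower. The labels tie no plant or day to a replicate number, and across genes same-numbered libraries deviated with a correlation of -0.16. The replicate block called 24 genes higher and 0 lower, and 0 of the 9. With the crossed block 4071 genes were higher and 816 lower. That block called 1 of the 9 lower (JAZ1) and 0 higher, and of the wider list 3 higher and 2 lower. Over all genes the median log2 change, 0.49, was 0.20 with no filter, 0.30 with a pseudocount of 5, -0.046 with median-of-ratios scaling, 0.030 with quantile normalization, 0.70 without the 10 most abundant genes, -0.030 with the length correction and 0.43 to 0.60 without single libraries.

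Directions turned for genes that were not called. With median-of-ratios scaling AOC was at -0.42, OPR3 at -0.58 and JAZ3 at -0.10. With quantile normalization AOC was at -0.21 and OPR3 at -0.69. With the length correction LOXD was at -0.37, AOC at -0.15, OPR3 at -0.64, JAZ3 at -0.0059 and MYC2 at -0.20. Leaving out a library gave -0.23 to 2.37 for LOXD, -0.12 to 0.15 for OPR3, -2.86 to 1.06 for JAZ2 and -0.54 to 1.58 for JAZ3. AOS1, AOS2 and JAZ1 kept their direction in all 17 settings, but without single libraries they ranged from 0.22 to 1.76, from -1.52 to -0.27 and from -2.47 to -0.31. The log2 differences of the AOS1 to AOS2 and JAZ3 to JAZ1 ratios, 2.05 and 1.95, were 1.67 and 1.49 with quantile normalization, and the second was 1.52 with the length correction. The cause of these changes was not tested. With 2 libraries per group, a miss of the threshold does not show that a gene was unchanged.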
